A study of Mus musculus with 25 samples.

Results

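The vasopressin and oxytocin receptors are a family of 4 G protein-coupled receptor genes, Avpr1a, Avpr1b, Avpr2 and Oxtr, and they were described here in αTC1 and βTC6 cells by taking every RNA-seq row that carries 1 of these symbols and every ATAC-seq peak whose annotated nearest gene is 1 of them. All 4 genes were among the 24439 genes measured by RNA-seq, and 28 of the 65053 consensus ATAC-seq peaks belonged to them, with 14 nearest to Oxtr, 8 to Avpr1a, 6 to Avpr1b and 0 to Avpr2. The lines are mouse islet tumour lines: alpha TC1 clone 6 (αTC1) makes glucagon and beta-TC-6 (βTC6) makes insulin, and both descend from tumours that a viral T antigen transgene drove in the respective islet cell of transgenic mice. RNA-seq was done on 3 libraries of each line, ATAC-seq on 5 libraries of each line, and ATAC-seq also on 9 mixtures holding 10% to 90% αTC1 cells, each sequenced once. Cells were untreated and each line grew in its own medium, so line and medium cannot be told apart, and the sources used here do not say whether replicates were separate cultures, so the p-values measure only the spread between these libraries.

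Vasopressin (Avp) and oxytocin (Oxt) are short, closely related peptides made mainly in the hypothalamus. The V1a receptor (Avpr1a), known from liver and vascular smooth muscle, the V1b receptor (Avpr1b), known from pituitary corticotrophs, and the oxytocin receptor (Oxtr) couple mainly to Gq proteins, which activate phospholipase C, release calcium through IP3 receptors and activate protein kinase C. The V2 receptor (Avpr2) of the kidney couples to Gs, which raises cyclic AMP through adenylate cyclases. In islets, vasopressin and oxytocin are known to stimulate glucagon and insulin secretion.

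Libraries held 21795367 to 24857674 expected counts in αTC1 and 24316436 to 25876765 in βTC6, and reads in peaks were 6903416 to 8300868 in αTC1, 4397851 to 10374903 in βTC6 and 5277983 to 7294832 in the mixtures. The labels held against islet markers: the summed FPKM (fragments scaled to transcript length and library size) of 3 alpha cell genes (Gcg, Irx1, Irx2) was 12336 to 14669 in αTC1 and 194 to 283 in βTC6, and that of 5 beta cell genes (Ins1, Ins2, Mafa, Pdx1, Nkx6-1) was 13.6 to 14.9 and 25372 to 37986. Ins1 and Pdx1 were listed at 0 in all αTC1 libraries. Of 2 corticotroph genes, the other cell type known for the V1b receptor, Tbx19 was at 0 in all αTC1 libraries, and the pair summed to 4.20 to 5.93 FPKM in αTC1 and 4.62 to 5.65 in βTC6.

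The sequences of 5 distal peaks are shown because they carry the clearest contrasts of accessibility at the receptor genes. Each run is the central 200 bases of a peak on the plus strand of mm9, and capitals mark matches on either strand to the E-box CAGCTG, the forkhead motif TGTTTAC or the MAF half-site TGCTGA. The first pair are the Avpr1b peaks with the most reads, 16.5 kb and 12.1 kb upstream of the gene, at chr1:133479097-133479296 and chr1:133483537-133483736.
Avpr1b -16.5 kb: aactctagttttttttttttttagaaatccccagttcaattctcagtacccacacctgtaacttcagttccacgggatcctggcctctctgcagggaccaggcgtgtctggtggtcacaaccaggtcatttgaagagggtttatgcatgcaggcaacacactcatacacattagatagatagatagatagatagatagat
Avpr1b -12.1 kb: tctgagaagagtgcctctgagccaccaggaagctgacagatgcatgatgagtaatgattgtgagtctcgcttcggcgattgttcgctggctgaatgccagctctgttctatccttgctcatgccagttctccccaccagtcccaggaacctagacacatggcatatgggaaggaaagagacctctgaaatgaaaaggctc
The next pair lie upstream of Avpr1a and had opposite directions, at chr10:121746082-121746281 for the peak at 139.4 kb and chr10:121845821-121846020 for the peak at 39.6 kb.
Avpr1a -139.4 kb: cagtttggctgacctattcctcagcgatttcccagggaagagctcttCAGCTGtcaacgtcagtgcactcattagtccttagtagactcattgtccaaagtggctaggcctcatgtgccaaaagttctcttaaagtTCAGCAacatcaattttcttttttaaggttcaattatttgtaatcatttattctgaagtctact
Avpr1a -39.6 kb: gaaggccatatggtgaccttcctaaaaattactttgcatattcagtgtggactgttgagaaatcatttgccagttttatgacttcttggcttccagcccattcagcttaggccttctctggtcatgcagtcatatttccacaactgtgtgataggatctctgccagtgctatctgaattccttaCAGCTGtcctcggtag
The last lies 34.9 kb upstream of Oxtr, at chr6:112474602-112474801, and was more open in αTC1.
Oxtr -34.9 kb: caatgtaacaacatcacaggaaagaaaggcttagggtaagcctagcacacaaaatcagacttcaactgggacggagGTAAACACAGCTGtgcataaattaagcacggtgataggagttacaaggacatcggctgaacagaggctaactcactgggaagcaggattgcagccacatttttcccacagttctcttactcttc
The 2 Avpr1b windows held none of the motifs searched. The Oxtr window at 34.9 kb held a forkhead motif that directly adjoins an E-box. Over the central 200 bases of all 28 receptor gene peaks, 10 held CAGCTG and 5 held the homeodomain motif TAATTA, where 17.2% and 6.92% of all 65053 peaks did. Searched with the same windows on both strands, 4 of the 28 held TGCTGA (18.5% of all peaks), 2 held TGTTTAC (6.32%), 2 held the AP-1 motif TGANTCA (10.6%), 1 held the GATA motif AGATAA (10.5%) and 0 held the cyclic AMP response element TGACGTCA (0.761%). A match is a description of letters and not a binding site.

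Transcripts of Avpr1b and Oxtr were abundant in αTC1, Oxtr also in βTC6, while Avpr1b was not detected in βTC6 and Avpr1a and Avpr2 were at the limit of detection in both lines. The 4 genes were chosen by their RNA-seq levels in these libraries, with the contrast of the lines known, so the levels are given as a description without a test. For the background, 1743 of 12195 tested genes (14.3%) were called different between the lines by edgeR when the FDR was below 5% and the log2 fold change exceeded 2 in size, with 10.2% higher in βTC6 and 4.08% higher in αTC1. FPKM of the 3 libraries of a line did not overlap those of the other in 77.7% of tested genes.

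Avpr1b (ENSMUSG00000026432, chr1:133495816-133508577 on mm9, plus strand), the V1b receptor, read 39.3, 38.5 and 48.0 FPKM in the 3 αTC1 libraries and 0 in each βTC6 library. Behind these values lay 3518, 3812 and 4892 expected counts in αTC1 and 0 counts in all 3 βTC6 libraries. The mean was 41.9 ± 5.23 FPKM in αTC1 (SD, n = 3), higher than that of 90.6% of all genes. Against a floor of 3 counts in each βTC6 library, the αTC1 mean of Avpr1b was at least 1300-fold higher.

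Oxtr (ENSMUSG00000049112, chr6:112423678-112440884, minus strand), the oxytocin receptor, read 50.4, 51.2 and 49.8 FPKM in αTC1 and 33.6, 46.4 and 28.6 FPKM in βTC6. In FPKM, every αTC1 library was above every βTC6 library, with βTC6 replicate 2 nearest to them. On the TMM scale used for the fold change the lines overlapped. There βTC6 replicate 2 (5336 expected counts) was above αTC1 replicate 3 (5315 expected counts in a larger library). The means were 50.4 ± 0.679 and 36.2 ± 9.21 FPKM (SD, n = 3 each), and the log2 fold change of βTC6 over αTC1 was -0.39 (SE 0.16), well inside the range of -2 to 2 that does not count as a difference here. Without βTC6 replicate 2 it was -0.65, and without βTC6 replicate 3 it was -0.25. Within αTC1, on this scale per transcript length, the lowest Oxtr value (49.8) was above the highest Avpr1b value (48.0).

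Avpr1a (ENSMUSG00000020123, chr10:121885555-121890509, plus strand), the V1a receptor, had 2, 1 and 0 counts in αTC1 and 1, 0 and 1 in βTC6, and its FPKM was at most 0.03. Avpr2 (ENSMUSG00000031390, chrX:71137441-71140841, plus strand), the V2 receptor, had 0, 4.52 and 1.29 expected counts in αTC1 and 0 in all βTC6 libraries, with FPKM of at most 0.07. Its annotated span overlaps those of L1cam and Arhgap4, and the fractional counts show that its reads were shared out by estimate, so its level is uncertain. Neither gene passed the expression filter, and no fold change is given for either. The order of levels was thus Oxtr, Avpr1b, then Avpr2 and Avpr1a near 0 in αTC1, and Oxtr alone above the limit in βTC6.

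**Figure D1:**
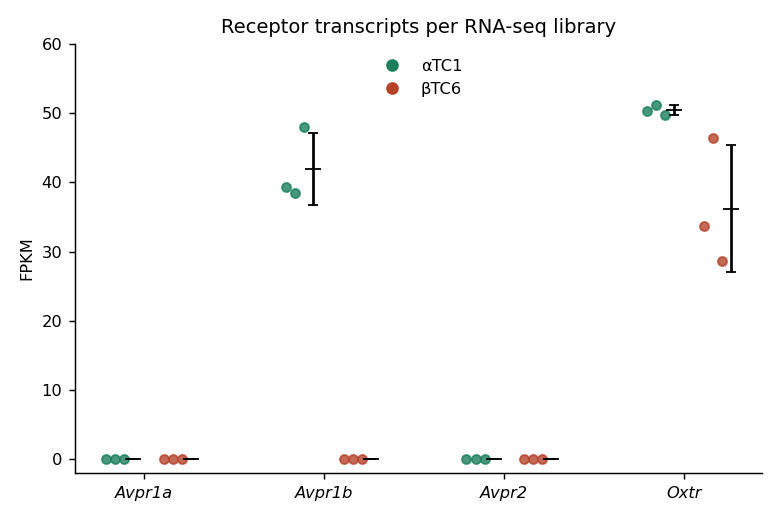
FPKM (vertical axis, linear) of the 4 receptor genes (horizontal axis) in each αTC1 (green) and βTC6 (red) RNA-seq library, with the mean and SD of 3 libraries in black. Avpr1b reads 38.5 to 48.0 in αTC1 and 0 in βTC6, Oxtr is high in both lines, and Avpr1a and Avpr2 lie near 0.

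Each receptor gene with peaks held some that differed in accessibility between the lines. Tested with limma over all peaks, 10 of the 28 peaks were differentially accessible (FDR below 5%, log2 fold change above 2 in size), 7 more open in αTC1 and 3 in βTC6, where 18.3% of all peaks were, 5.38% in αTC1 and 12.9% in βTC6. At any fold change, 26 of 28 passed an FDR of 5%, against 78.0% of all peaks, and in 25 of 28 the 5 libraries of a line did not overlap the 5 of the other, against 63.9% of all peaks. By gene, 4 of 6 Avpr1b, 3 of 8 Avpr1a and 3 of 14 Oxtr peaks were called at the fold threshold. The Oxtr share of 21.4% was near the 18.3% of all peaks and the 17.4% of all chromosome 6 peaks. The median log2 fold change of βTC6 over αTC1 was -1.22 over the 28 peaks and 0.0011 over all peaks. The peaks were taken by annotation alone and the ATAC-seq libraries are separate from the RNA-seq libraries, but the genes were chosen for a difference between these lines, so the accessibility is not independent support for it. The chromosomes themselves were shifted: the median log2 fold change was -0.61 over the other peaks of chromosome 1, which holds Avpr1b, -0.79 on chromosome 6, which holds Oxtr, and 0.17 on chromosome 10, which holds Avpr1a. Within 1 Mb of the genes it was -1.0 at Avpr1b, -0.87 at Oxtr and -0.21 at Avpr1a, and the part of these regional shifts in the values below was not tested.

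All 6 Avpr1b peaks were more open in αTC1, and 4 of them were called. Most other peaks within 1 Mb shared this direction, with log2 fold change quartiles of -1.39 and -0.56. At 16.5 kb upstream (chr1:133478481-133479914, intergenic), the αTC1 libraries held 98.0, 87.8, 89.4, 89.8 and 85.5 normalized reads, and the βTC6 libraries 3.55, 5.74, 4.32, 5.99 and 2.91. The means were 90.1 ± 4.74 and 4.50 ± 1.34 (SD, n = 5 each), a 20.0-fold ratio, and the limma log2 fold change was -4.08 (SE 0.14, adjusted p = 1.2e-14). Over all 5 libraries of each line, no other receptor gene peak differed as much. In replicates 4 and 5 alone it stood at -4.08, and the peak at 12.1 kb upstream at -4.12.

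At 12.1 kb upstream (chr1:133483270-133484005, intergenic), αTC1 held 86.3, 84.1, 83.0, 87.8 and 88.8 normalized reads and βTC6 held 6.96, 4.31, 7.57, 5.14 and 3.29. The log2 fold change was -3.80 (SE 0.15, limma adjusted p = 5.6e-14). At both upstream peaks every αTC1 library was far above every βTC6 library.

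The peak at the Avpr1b start (chr1:133495555-133495942) spans the annotated first base of the gene, and held 12.5, 11.8, 16.5, 11.7 and 10.3 normalized reads in αTC1 against 0.568, 0.205, 2.57, 0.428 and 1.31 in βTC6. In recovered whole reads the βTC6 libraries held 4, 1, 19, 3 and 14, and the table holds no value under 1 read. The log2 fold change was -2.85 (SE 0.27, limma adjusted p = 8.0e-09). The next peak, 1.1 kb into the gene and over a coding exon (chr1:133496295-133497221), held 26.2, 26.8, 19.7, 20.1 and 18.3 against 1.70, 3.28, 3.92, 2.14 and 2.25 normalized reads (log2 fold change -2.68, SE 0.19, limma adjusted p = 1.7e-10). With 5 added to each value before the logarithm in place of 1, these 2 peaks no longer reached a log2 fold change of 2 in size (-1.55 and -1.83), whereas the 2 upstream peaks did.

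The other 2 Avpr1b peaks differed less, and lay nearer to the regional median of -1.0. At 25.2 kb upstream, the libraries spanned 2.53 to 5.19 normalized reads in αTC1 and 1.23 to 2.71 in βTC6, which overlap (log2 fold change -0.67, SE 0.22, limma adjusted p = 0.0083). At 14.4 kb downstream of the start, past the end of the gene, the range was 7.21 to 11.2 in αTC1 and 2.46 to 4.41 in βTC6 (log2 fold change -1.15, SE 0.20, limma adjusted p = 2.6e-05).

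Avpr1a, which had almost no transcripts, had peaks of either direction. At 139.4 kb upstream (chr10:121745750-121746614), αTC1 held 4.06, 5.34, 4.06, 5.05 and 8.52 normalized reads and βTC6 held 52.8, 49.8, 47.4, 55.6 and 63.8. The means differed 9.97-fold in favour of βTC6 (log2 fold change 3.13, SE 0.16, limma adjusted p = 9.7e-13). At 105.0 kb upstream (chr10:121780407-121780789), αTC1 held 0.560, 0.562, 0.451, 0.136 and 0.433 normalized reads, or 4, 4, 3, 1 and 3 reads, and βTC6 held 6.39, 5.74, 8.24, 4.99 and 5.45. This smaller peak had a log2 fold change of 2.32 (SE 0.19, limma adjusted p = 9.3e-10), which fell to 1.03 with 5 added before the logarithm and to 1.93 after quantile normalization, both short of the threshold.

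The peak 39.6 kb upstream of Avpr1a (chr10:121845321-121846521) went the other way. Its αTC1 libraries held 40.2, 36.5, 41.8, 31.5 and 44.2 normalized reads and its βTC6 libraries 1.99, 1.85, 3.51, 3.14 and 0.751. The ratio of means was 17.3-fold in favour of αTC1 (log2 fold change -3.68, SE 0.21, limma adjusted p = 6.7e-12). Between these peaks, those at 68.4 kb and 59.8 kb upstream lay just short of the threshold, at -1.92 (SE 0.25) and -1.78 (SE 0.28), and both passed it after quantile normalization (-2.26 and -2.09), with 0.5 added before the logarithm (-2.10 and -2.25) and with edgeR on recovered reads (-2.21 and -2.99). The first also passed it without βTC6 replicate 2 (-2.08) and without βTC6 replicate 4 (-2.08), and the second in replicates 4 and 5 alone (-2.15).

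At the Avpr1a start (chr10:121885468-121886583, over a coding exon) accessibility was low in both lines, with 5.04, 4.49, 3.16, 4.23 and 2.46 normalized reads in αTC1 and 7.10, 12.7, 11.8, 8.42 and 14.5 in βTC6. Every βTC6 library was above every αTC1 library, and the log2 fold change was 1.27 (SE 0.22, limma adjusted p = 2.7e-05). Downstream, the peak at 46.8 kb was more open in αTC1 (-1.33, SE 0.23) and that at 51.7 kb in βTC6 (1.48, SE 0.17, and past the threshold with edgeR on recovered reads, at 2.41). For all the intergenic Avpr1a peaks, Avpr1a was the closest annotated start of a coding gene. That follows largely from taking the peaks by their annotated nearest gene, and does not show that they act on Avpr1a.

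The Oxtr locus was open in both lines, most of its 14 peaks more so in αTC1. Its peak with the most reads, 36.0 kb upstream (chr6:112475109-112476433), held 197.5, 190.9, 208.8, 207.0 and 190.7 normalized reads in αTC1 and 60.9, 61.7, 54.5, 55.6 and 72.6 in βTC6. Its log2 fold change of -1.69 (SE 0.087, limma adjusted p = 1.5e-12) was short of the threshold although no libraries overlapped. Directly beside it, the peak at 34.9 kb (chr6:112474565-112474840) held 26.1, 33.4, 29.2, 27.2 and 31.6 in αTC1 and 4.40, 3.90, 4.46, 3.57 and 1.97 in βTC6, with a log2 fold change of -2.74 (SE 0.17, limma adjusted p = 2.2e-11).

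Further upstream of Oxtr, the peak at 63.0 kb spanned 21.4 to 32.9 normalized reads in αTC1, against 8.09 to 11.3 in βTC6 (log2 fold change -1.30, SE 0.14, limma adjusted p = 6.5e-08). With 5 added before the logarithm, the peak at 34.9 kb stood at -1.998, just under the threshold in size.

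The farthest Oxtr peak, 92.3 kb upstream (chr6:112531966-112532307), held 9.10, 8.29, 8.72, 4.37 and 7.51 normalized reads in αTC1 and 0.994, 0.205, 0.135, 3.14 and 1.41 in βTC6. It was called, at -2.12 (SE 0.30, limma adjusted p = 2.7e-06), but this call rested on single libraries: it stood at -1.95 without βTC6 replicate 2, at -1.92 without βTC6 replicate 3, at -1.10 in replicates 4 and 5 alone and at -1.03 with 5 added before the logarithm.

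At the Oxtr start, where transcripts were present in both lines, accessibility was also present in both. The peak nearest to the deposited start position (chr6:112438997-112440060, over a coding exon) held 57.8, 56.5, 56.8, 53.2 and 34.2 normalized reads in αTC1 and 21.0, 22.6, 21.9, 23.8 and 18.4 in βTC6 (log2 fold change -1.21, SE 0.13, limma adjusted p = 4.6e-08). The peak over the first base of the longest annotated transcript (chr6:112440652-112441198) held 51.5, 55.8, 58.3, 50.8 and 43.0 against 32.9, 25.02, 25.8, 27.8 and 28.6 (log2 fold change -0.86, SE 0.10, limma adjusted p = 2.2e-07). The median of the other peaks within 1 Mb was -0.87, with a lower quartile of -1.27. In the introns, the peaks at 5.3 kb and 6.7 kb stood at -1.05 (SE 0.14) and -1.49 (SE 0.10).

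Among the other Oxtr peaks, those at 5.4 kb and 26.7 kb upstream did not pass an FDR of 5%. The first spanned 20.9 to 26.3 normalized reads in αTC1, against 23.1 to 29.7 in βTC6 (log2 fold change 0.15, SE 0.11, limma adjusted p = 0.21). The second spanned 1.40 to 4.23, against 3.41 to 5.54 (log2 fold change 0.44, SE 0.24, limma adjusted p = 0.092), and its sign turned to -0.03 after quantile normalization. The peaks at 11.6 kb and 80.9 kb were more open in αTC1 (-1.24, SE 0.21, and -1.17, SE 0.15), and that at 77.6 kb in βTC6 (1.29, SE 0.20).

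**Figure D2:**
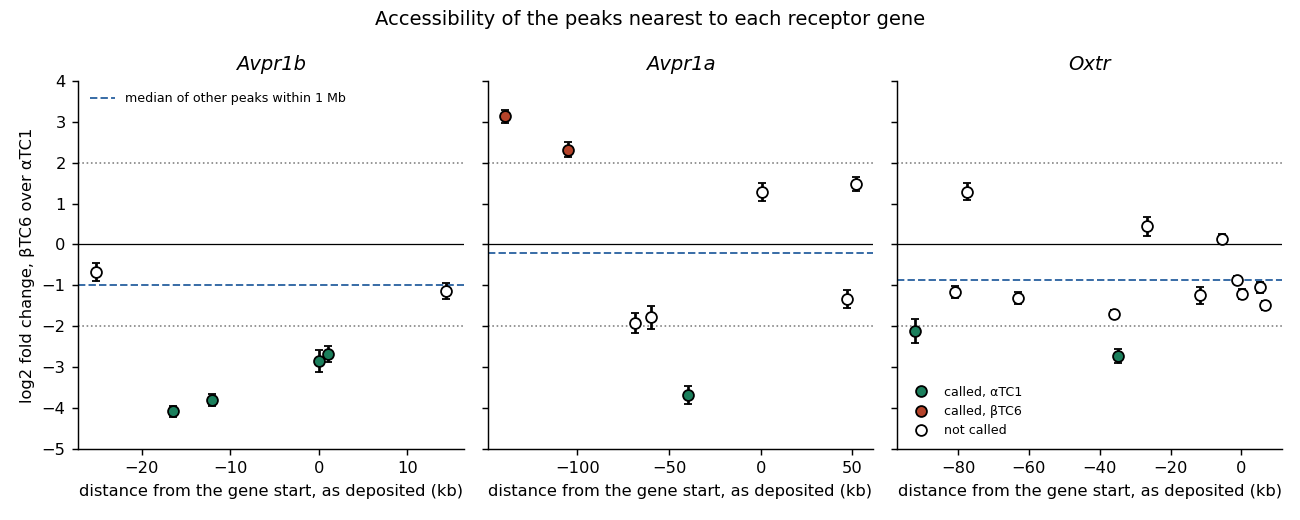
Log2 fold change of βTC6 over αTC1 with its limma SE (vertical axis) of 27 receptor gene peaks against their distance from the gene start in kb (horizontal axis, negative is upstream). Green and red points are called higher in αTC1 and βTC6, white points are not called, dotted lines mark -2 and 2, and dashed lines the median of other peaks within 1 Mb; all 6 Avpr1b peaks lie below 0, and Avpr1a has called peaks of either direction.

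**Figure D3:**
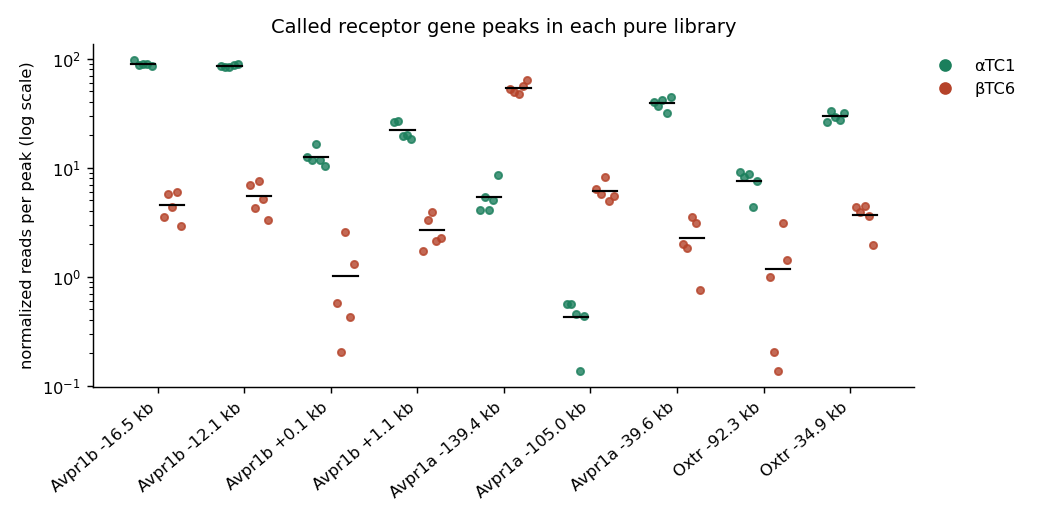
Normalized reads per peak (vertical axis, log scale) of 9 of the 10 called receptor gene peaks in each pure αTC1 (green) and βTC6 (red) ATAC-seq library, with the mean of 5 libraries as a line. In none of these 9 do the libraries of both lines overlap, and the Oxtr peak at 92.3 kb comes closest, with 4.37 in the lowest αTC1 library and 3.14 in the highest βTC6 library.

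The 9 mixtures show how the receptor gene peaks followed the share of αTC1 cells. Their libraries are separate from those of the pure lines, but they blend the same 2 lines, so the mixtures are not independent support for the contrast. Over the 28 peaks, 22 were related to the αTC1 percentage by a 2-sided exact permutation test of Pearson's r (adjusted p under 0.05), 17 rising and 5 falling with αTC1, where 51.9% of all 65053 peaks were, 21.8% rising and 30.1% falling. By Spearman's rho 21 were, against 47.3% of all peaks. The adjusted p-values given here are over all peaks, and adjustment over the 28 alone gave the same counts. All 10 called peaks were among the 22, in the direction of the pure lines, with r of 0.747 to 0.995 in size. Of the 26 peaks that passed an FDR of 5% between the pure lines, 4 did not pass in the mixtures, namely those at 51.7 kb of Avpr1a, 14.4 kb of Avpr1b, and 5.3 kb and -1.1 kb of Oxtr. The smallest p these permutations can give is 5.5e-06. Without the mixtures at 10% and 90%, 9 of the 28 passed with adjustment over all peaks, where 22.4% of all peaks did, and 14 with adjustment over the 28 alone. The called peaks that missed the threshold under the first of these included those at 105.0 kb of Avpr1a, 1.1 kb of Avpr1b and 92.3 kb of Oxtr.

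The Avpr1b peak at 12.1 kb upstream rose with αTC1 at every step, with 13.6, 25.3, 33.8, 39.5, 48.2, 62.5, 63.4, 74.7 and 80.7 normalized reads from 10% to 90% αTC1. Its relation to the percentage was r = 0.995, exact permutation p = 5.5e-06 and 0.00038 adjusted, rho = 1.0, p = 5.5e-06 and 0.00038 adjusted, and r = 0.991 without the mixtures at 10% and 90%. At 16.5 kb upstream, the values were 17.3, 25.1, 40.7, 44.6, 47.9, 59.6, 52.9, 75.0 and 88.8, rising at all steps but that from 60% to 70% (r = 0.965, exact permutation p = 2.8e-05 and 0.00063 adjusted, rho = 0.983, p = 5.0e-05 and 0.00093 adjusted, and r = 0.935 without the mixtures at 10% and 90%). Already at 10% αTC1, this peak held more reads than any pure βTC6 library.

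The Avpr1b start peak went from 1.34 normalized reads at 10% αTC1 to 12.2 at 90% (r = 0.950, exact permutation p = 8.8e-05 and 0.0011 adjusted, rho = 0.967, p = 0.00017 and 0.0018 adjusted, and r = 0.899 without the mixtures at 10% and 90%). At 1.1 kb into the gene the values went from 2.69 to 12.8 (r = 0.840, exact permutation p = 0.0042 and 0.012 adjusted, rho = 0.867, p = 0.0045 and 0.014 adjusted, and r = 0.841 without the mixtures at 10% and 90%), and 7 of the 9 lay below a straight line drawn between the means of the pure lines.

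At Avpr1a, the 39.6 kb peak rose at every step, with 8.34, 11.9, 15.5, 20.7, 27.5, 30.5, 35.0, 38.5 and 40.0 normalized reads (r = 0.993, exact permutation p = 5.5e-06 and 0.00038 adjusted, rho = 1.0, p = 5.5e-06 and 0.00038 adjusted, and r = 0.996 without the mixtures at 10% and 90%), and it lay above the straight line between the pure lines in 9 of 9 mixtures. The 139.4 kb peak fell from 57.2 at 10% αTC1 to 36.5 at 50% and 11.2 at 90% (r = -0.968, exact permutation p = 3.3e-05 and 0.00068 adjusted, rho = -0.983, p = 5.0e-05 and 0.00093 adjusted, and r = -0.948 without the mixtures at 10% and 90%). The start peak also fell with αTC1 (r = -0.907, exact permutation p = 0.0016 and 0.0060 adjusted, rho = -0.90, p = 0.0020 and 0.0081 adjusted, and r = -0.908 without the mixtures at 10% and 90%). The peak at 51.7 kb downstream did not pass the test (r = -0.195, exact permutation p = 0.61 and 0.68 adjusted, rho = -0.183, p = 0.64 and 0.71 adjusted, and r = 0.401 without the mixtures at 10% and 90%).

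At Oxtr, the peak with the most reads, at 36.0 kb, went from 87.4 normalized reads at 10% αTC1 to 144.1 at 50% and 190.8 at 90% (r = 0.954, exact permutation p = 0.00010 and 0.0012 adjusted, rho = 0.950, p = 0.00035 and 0.0027 adjusted, and r = 0.909 without the mixtures at 10% and 90%). Beside it, the 34.9 kb peak went from 5.38 to 24.6 (r = 0.977, exact permutation p = 2.8e-05 and 0.00063 adjusted, rho = 0.967, p = 0.00017 and 0.0018 adjusted, and r = 0.975 without the mixtures at 10% and 90%). The 92.3 kb peak was the weakest called one, with r = 0.747, exact permutation p = 0.022 and 0.044 adjusted, rho = 0.70, p = 0.043 and 0.079 adjusted, and r = 0.423 without the mixtures at 10% and 90%, so that its relation rests on those 2 samples.

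In 6 of the 28 peaks all 9 mixtures lay on one side of a straight line between the means of the pure lines, where 13.5% of all peaks did so, and in 3 of the 28 all lay below it, against 9.45% of all peaks. All lay above it at 39.6 kb of Avpr1a, 12.1 kb of Avpr1b and 6.7 kb of Oxtr, and all lay below it at both peaks of the Oxtr start. The Oxtr start peak over the coding exon held 23.7, 21.1, 29.1, 27.1, 26.7, 29.6, 36.2, 29.7 and 30.5 normalized reads from 10% to 90% αTC1, while the pure αTC1 libraries had a mean of 51.7 ± 9.92 (SD, n = 5) and the pure βTC6 libraries 21.5 ± 2.03. Its relation to the percentage was r = 0.739, exact permutation p = 0.020 and 0.041 adjusted, rho = 0.867, p = 0.0045 and 0.014 adjusted, and r = 0.727 without the mixtures at 10% and 90%. The peak over the first base of the gene held 34.9 at 90% αTC1 against a value of 49.5 on the line. The Oxtr peak at 5.4 kb, which had not passed the test between the pure lines, stayed between 18.3 and 26.7 in all mixtures (r = 0.229, exact permutation p = 0.55 and 0.62 adjusted, rho = 0.267, p = 0.49 and 0.57 adjusted, and r = -0.076 without the mixtures at 10% and 90%). The mixtures have no replicates, so these courses have no error of their own.

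**Figure D4:**
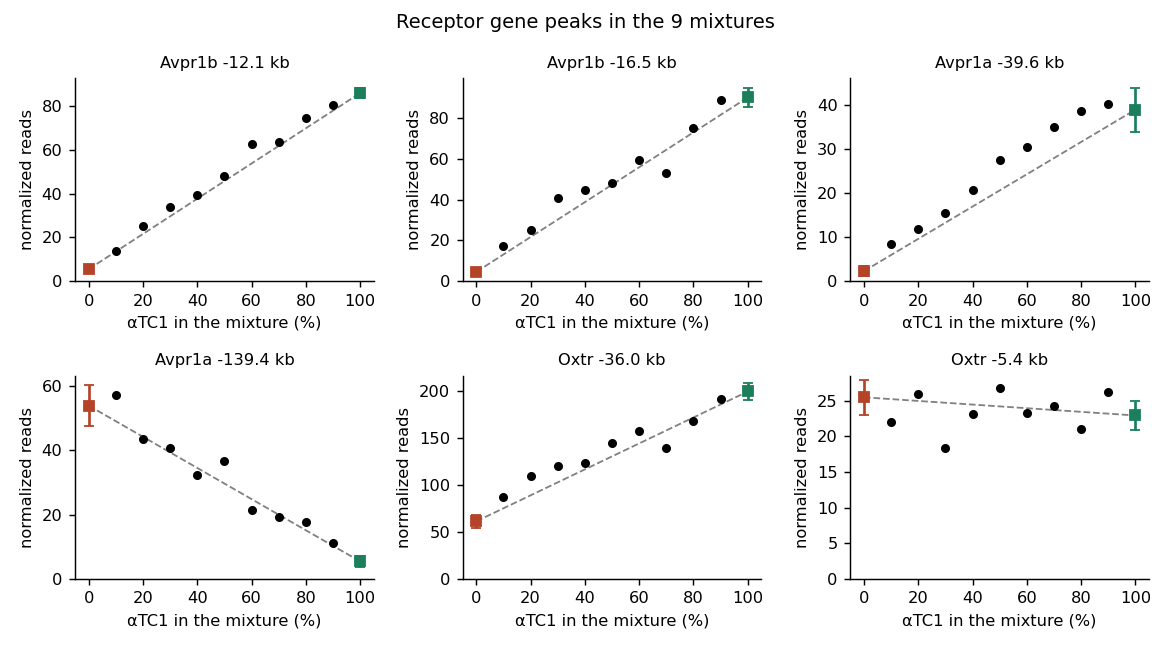
Normalized reads per peak (vertical axes, linear, from 0) of 6 receptor gene peaks against the percentage of αTC1 cells (horizontal axes). Black points are the 9 mixtures, each sequenced once, squares are the means and SD of 5 pure βTC6 (red, at the left end) and 5 pure αTC1 (green, at the right end) libraries, and dashed lines join these means; the Avpr1b peak at 12.1 kb rises from 13.6 to 80.7 and the Oxtr peak at 5.4 kb stays between 18.3 and 26.7.

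The ligands of these receptors stayed under the floor of 3 counts in every library. Avp had 1, 0 and 0 counts in αTC1 and 0 in all βTC6 libraries. Oxt had 1 count in each αTC1 library and 0, 1 and 0 in βTC6. The close receptor relatives Gnrhr, for gonadotropin-releasing hormone, and Npsr1, for neuropeptide S, had 0 counts in all 6 libraries.

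The enzymes that mature such peptides and the signalling genes downstream of the receptors were followed as a list of 46 genes, all measured, of which 34 passed the expression filter. Of these, 10 were called higher in βTC6 and 1 in αTC1, or 32.4% against 14.3% of all tested genes, and their median log2 fold change was 0.59, against 0.0094 over all tested genes. The list was drawn up with earlier results of these data known, so its share of calls is no evidence about the pathway. Pcsk1, Itpr3, Prkcb, Prkcd, Adcy1, Adcy2 and Adcy3 were below 1 FPKM in every αTC1 library. These genes passed the filter only through βTC6, where they are high, so their calls and p-values are a description. The 11 genes called were Pcsk1, Cpe, Itpr3, Prkca, Prkcb, Prkcd, Adcy1, Adcy2, Adcy3, Adcy9 and Rgs4.

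Of the processing enzymes, Pcsk1, the prohormone convertase that also cleaves proinsulin, read 0.150, 0.060 and 0.250 FPKM in αTC1 and 89.0, 120.9 and 44.5 in βTC6 (log2 fold change 9.13, SE 0.53, edgeR adjusted p = 5.7e-07). Cpe, the carboxypeptidase that trims the cleaved ends, read 255.9, 255.9 and 244.5 in αTC1 and 1592, 1830 and 1129 in βTC6 (log2 fold change 2.65, SE 0.18, edgeR adjusted p = 1.4e-06). Both were higher in every βTC6 library. The convertase Pcsk2 had means of 783 ± 40.9 and 475 ± 80.5 FPKM (log2 fold change -0.66, SE 0.14). Pam, which amidates peptide ends, and Lnpep, an aminopeptidase that degrades oxytocin and vasopressin, stood at -1.80 (SE 0.20) and -1.02 (SE 0.14), short of the threshold.

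In the Gq arm, 4 of 11 tested genes were called, all higher in βTC6. Itpr3, an IP3 receptor, read 0.130, 0.180 and 0.150 FPKM in αTC1 and 3.05, 1.35 and 1.78 in βTC6 (log2 fold change 3.80, SE 0.33, edgeR adjusted p = 6.6e-06). Itpr1, the IP3 receptor with the highest level in both lines, was higher in αTC1, at means of 9.54 and 5.78 FPKM, short of the fold threshold (log2 fold change -0.83, SE 0.10, edgeR adjusted p = 7.3e-05). The protein kinase C genes Prkca and Prkcd rose from means of 2.203 and 0.117 FPKM to 15.9 and 9.57, with log2 fold changes of 3.51 (SE 0.12, edgeR adjusted p = 3.5e-08) and 6.73 (SE 0.22, edgeR adjusted p = 2.0e-08). Prkcb had 1, 0 and 1 counts in αTC1 and 555, 480 and 645 in βTC6 and was called, but a fold change from so few counts is not given. The G protein subunits themselves, Gnaq and Gna11, were expressed in both lines and not called, with 20.0 and 75.3 FPKM in αTC1 and 30.5 and 53.0 in βTC6, and nor was the main phospholipase by level, Plcb4 (12.9 and 24.0).

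In the Gs arm, 4 of 8 tested genes were called, all of them adenylate cyclases and higher in βTC6. The cyclase with the most transcripts in αTC1, Adcy6, went the other way, at 26.1, 26.7 and 26.25 FPKM in αTC1 and 12.5, 10.3 and 11.7 in βTC6, and was short of the fold threshold (log2 fold change -1.14, SE 0.081, edgeR adjusted p = 1.9e-06). Adcy9 read 1.99, 1.87 and 1.89 FPKM in αTC1 and 12.7, 11.1 and 10.3 in βTC6 (log2 fold change 2.61, SE 0.11, edgeR adjusted p = 8.4e-08). Adcy2 and Adcy3 had log2 fold changes of 4.78 (SE 0.26, edgeR adjusted p = 4.1e-07) and 2.65 (SE 0.18, edgeR adjusted p = 1.7e-06). Adcy1 had 2, 2 and 0 counts in αTC1 and 3510, 3096 and 3743 in βTC6 and was called. Gnas, the Gs subunit, read 2688 ± 106 and 2748 ± 176 FPKM in αTC1 and βTC6 and was not called (log2 fold change -0.03, SE 0.12).

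Of the 10 genes that switch receptors off, all were tested and 1 was called. Rgs4, a regulator that speeds the return of Gq and Gi subunits to the inactive state, read 43.1, 42.2 and 87.0 FPKM in αTC1 and 6.59, 4.50 and 9.74 in βTC6 (log2 fold change -3.004, SE 0.34, edgeR adjusted p = 4.2e-05). The receptor kinase Adrbk2 lay just below the threshold at 1.91 (SE 0.13). The median over the 10 was -0.13.

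**Figure D5:**
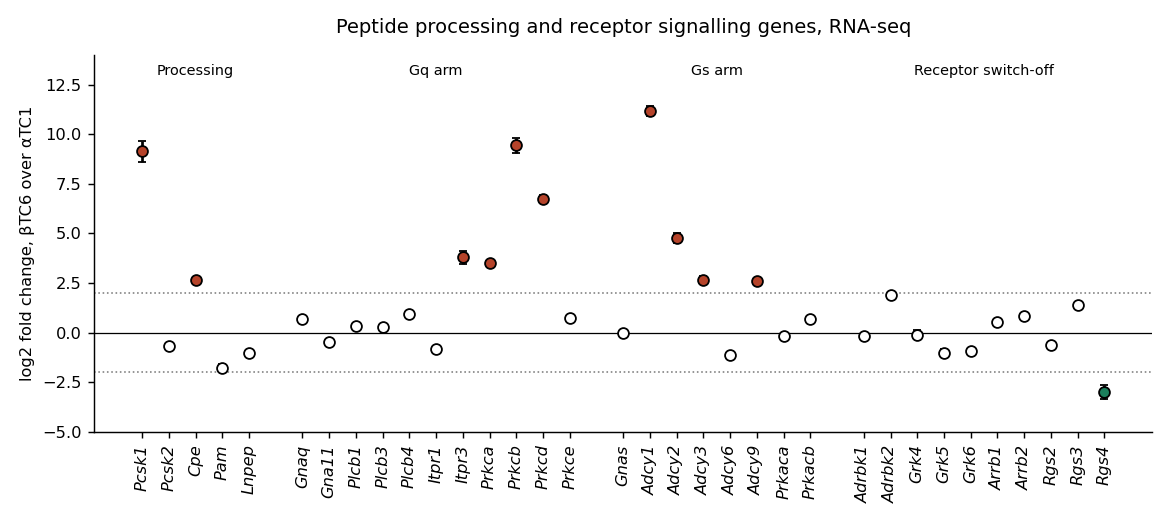
Log2 fold change of βTC6 over αTC1 in RNA-seq with its SE (vertical axis) of the 34 tested genes of the list, by role. Red and green points are called higher in βTC6 and αTC1, white points are not called, and dotted lines mark -2 and 2; 10 genes are called in βTC6 and Rgs4 alone in αTC1, and the values of Adcy1, Prkcb, Pcsk1 and Prkcd depend on the few αTC1 counts.

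The tested genes most like Avpr1b, by Euclidean distance over log2(FPKM + 1) of the 6 RNA-seq libraries, included Tpm3-rs7 (distance 0.425), Sytl2 (0.503), Ntn4 (0.685) and Wnt10a (0.764). The mean FPKM of these 4 was 32.5 to 40.9 in αTC1, against 0.0067 to 0.337 in βTC6. Most like Oxtr were Rfwd3 (0.315), Hmgb3 (0.321), Gpbp1 (0.390), Csrp1 (0.407) and Zfp367 (0.408). Over log2(normalized read count + 1) of all 19 ATAC-seq libraries, the peaks outside the receptor genes most correlated with the Avpr1b start peak included those nearest to Ywhaq (r = 0.987), Fam168a (0.981), Mir582 (0.981) and Lhfpl2 (0.980). In that order, these peaks lie at -663.5, 26.7, 162.8 and 87.1 kb of the gene starts, so the names give position only. All these likenesses are descriptions over libraries that share the same contrast of lines.

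Genes beside the receptors also differed between the lines. Of 35 genes within 250 kb of the 4 receptor genes, 23 were tested and 9 were called, 5 higher in βTC6 and 4 in αTC1, where 14.3% of all tested genes were called. Beside Avpr1b, 2 of 3 tested genes were called: Fam72a and Slc41a1 were higher in αTC1 with log2 fold changes of -2.37 (SE 0.22, edgeR adjusted p = 1.1e-05) and -2.37 (SE 0.14, edgeR adjusted p = 6.4e-07), and Srgap2 lay at -1.96 (SE 0.071). Beside Oxtr, Gm17462 was called higher in βTC6, at 6.08, 5.10 and 3.72 FPKM in αTC1 and 46.9, 62.9 and 61.4 in βTC6 (log2 fold change 3.58, SE 0.19, edgeR adjusted p = 3.3e-07), and Gm16598 higher in αTC1 (-2.95, SE 0.20, edgeR adjusted p = 1.4e-06). Beside Avpr1a, the tested gene within this distance was Ppm1h, at 1.34 (SE 0.12). Beside Avpr2, which had no peak of its own, 5 of 14 tested genes were called, with Pnck, Renbp, L1cam and Ssr4 higher in βTC6 and Arhgap4, which overlaps L1cam, higher in αTC1. Which gene a distal peak acts on was not measured.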

How the data were processed

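Per the authors' methods and the submitters' processing notes, ATAC-seq reads were trimmed (Trimmomatic 0.32), aligned to mm9 (BWA 0.7.9a), freed of duplicates (Picard 1.95), called into peaks per library (MACS2 2.1.0), merged (DiffBind 2.2.5) and annotated with nearest genes (HOMER 4.6). The deposited ATAC-seq signal is the TMM-normalized read count per consensus peak; whole reads were recovered from it (100% of values within 0.01 of a whole number). The deposited RNA-seq expected counts and FPKM come from the authors' RSEM 1.2.12 run on Ensembl transcripts. The columns of the authors' own peak calls were not used, and 0 columns of sample values were unmatched.

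Genes (rounded expected counts, TMM, with every library of αTC1 or of βTC6 at FPKM 1 or above) were tested with edgeR 4.0.16 (glmQLFit, glmQLFTest), where the authors scaled by ERCC spike-ins. ERCC sequences held 0.436% to 0.971% of counts and stayed out of the tests. Peaks were tested with limma 3.58.1 (trend) on log2(normalized read count + 1). Both ran in R 4.3.3 with Benjamini-Hochberg adjustment. Both fits were checked on simulated tables in which few features changed, by a large amount, with changed peaks taken from those with more reads. That check does not cover peaks of a few reads or differences as broad as those seen here. Mixtures were tested by exact permutation in Python 3.11.15, with adjustment over the receptor gene peaks and, added after seeing the data, over all peaks. Log2 fold changes give βTC6 relative to αTC1. A peak's distance is the deposited one, locations and gene spans are from GENCODE vM1, and sequences from the mm9 genome. Floors of 3 counts cover counting error only.

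Receptor genes, ligands, relatives, called list genes and the 5 nearest in likeness were named by rule; neighbouring genes and other list genes were added after their values were seen. A few genes and 1 peak that these rules or the marker lists hold are not reported here. The genes and lists were chosen with earlier results of these data known. Other islet and pancreatic marker lists gave summed FPKM in αTC1 and βTC6 of 1240 to 1679 and 423 to 508 (delta, of which Sst was at 0 in αTC1), up to 0.100 and 50.8 (PP), 0.880 and 0.650 (epsilon), 3.73 and 0.820 (acinar), 7.42 and 0.550 (ductal), 0.100 and 0.280 (endothelial), 1.20 and 2.19 (immune) and 0.210 and 0.160 (fibroblast); their part in the results was not tested. Alternatives were DESeq2 1.42.0, ERCC scaling, no filter, other pseudocounts, quantile normalization, edgeR on recovered reads, a filter on low peaks, a replicate block, subsets of replicates and each library left out.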

Additional observations from a re-analysis of the deposited data

Results flagged for a closer look

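In the 56 groups of 5 pure ATAC-seq libraries (28 peaks in 2 lines), 2 held a library far from the other 4 by Dixon's ratio of the gap to the whole range (critical value 0.71), where chance gives about 1 in 20 groups. In the Avpr1a peak at 139.4 kb upstream, αTC1 replicate 5 held 8.52 normalized reads, above the 4.06 to 5.34 of the others (ratio 0.7133). In the Oxtr peak over the coding exon at the start, αTC1 replicate 5 held 34.2, below the 53.2 to 57.8 of the others (ratio 0.8045), and still above all βTC6 libraries. Groups of 3 RNA-seq libraries and the single mixtures were not examined in this way.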

How the results depend on the processing

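Of the 10 called receptor gene peaks, 4 were called under every alternative that could be fitted: those of Avpr1b at 16.5 and 12.1 kb and of Avpr1a at 139.4 and 39.6 kb upstream. With a pseudocount of 5, 4 receptor peaks were called, as were 1668 peaks in βTC6 and 819 in αTC1, against 8409 and 3502; edgeR on recovered reads called 13794 and 5739. The cause was not tested. Quantile normalization moved the share of calls higher in βTC6 from 70.6% to 52.5% (5655 and 5126 peaks), and the log2 fold change of the Oxtr peak at 26.7 kb to -0.033. Without a filter on low values, 2510 and 1020 genes were called, against 1245 and 498, with 19570 genes tested instead of 12195. The cause of this rise was not tested either. Without the mixtures at 10% and 90%, 14 peaks were related to the αTC1 percentage instead of 22, with fewer samples, and 9 with adjustment over all peaks, added after seeing the data; 2 relations that had not passed the test changed sign, r reaching 0.401 (Avpr1a, 51.7 kb downstream) and -0.076 (Oxtr, 5.4 kb upstream). With reads scaled to their total in peaks instead of TMM, 20 were related. With all 9 mixtures, adjustment over all peaks, also added after seeing the data, left 22 related. Leaving out 1 library gave 9 to 11 called receptor peaks, 11 to 13 list genes, a log2 fold change of Oxtr transcripts of -0.65 to -0.25 and a log2 lower bound for Avpr1b of 10.33 to 10.50. Same-numbered libraries of the lines were only weakly correlated (-0.047 to 0.026 in RNA-seq and -0.0019 to 0.069 in ATAC-seq). For βTC6 ATAC-seq replicates 3, 4 and 5 the same-numbered αTC1 library was the best match, which it was for no RNA-seq replicate. Whether the numbers pair libraries is thus not settled. A replicate block left 10 receptor peaks called, 11 list genes, and Oxtr transcripts at -0.43; it gave 1241 and 503 genes, and 8409 and 3502 peaks. Oxtr stood at -0.40 with ERCC scaling, -0.39 with DESeq2, -0.45 without a filter and -0.50 and -0.51 on log2(FPKM + 1) and log2(FPKM + 0.1). No lower bound for Avpr1b could be given from FPKM alone. Peaks of a few reads, such as that of Avpr1a at 105.0 kb, are limited by depth.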
